A study of Mus musculus with 12 samples.

Results

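The 9 genes described here encode the Janus kinases Jak1, Jak2, Jak3 and Tyk2 and the transcription factors Stat2, Stat3, Stat5a, Stat5b and Stat6. They were chosen by symbol, all 9 stood in the table of 24411 gene symbols, and all 9 were among the 11484 genes tested (those whose values averaged at least 10 across the 12 libraries). Total RNA was sequenced from leukaemia cells of BALB/c mouse bone marrow that carry mutant CEBPA and mutant CSF3R, the receptor for granulocyte colony-stimulating factor. Cells were kept for 24 h with 50 nM ruxolitinib plus 2 nM GSK-LSD1 (the combination), with 2 nM GSK-LSD1, with 50 nM ruxolitinib, or with the solvent DMSO, and each of these 4 groups had 3 libraries. All groups, the DMSO controls included, share the mutant genes, the strain and a culture medium with fetal bovine serum. Ruxolitinib inhibits the kinases JAK1 and JAK2, and GSK-LSD1 inhibits the histone demethylase LSD1.

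Janus kinases are bound to the inner part of cytokine receptors, which have no kinase of their own. When a cytokine brings receptor chains together, the kinases phosphorylate each other, the receptor and STAT proteins, and the STATs pair and move to the nucleus to bind DNA. In myeloid cells the receptor for granulocyte colony-stimulating factor signals through this route, with STAT3 and STAT5 proteins among its main targets. Ruxolitinib blocks kinase activity, and the measurements here are of RNA, not of protein or phosphorylation.

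Stat5a and Stat5b encode near-identical proteins and lie side by side on chromosome 11 (GRCm38), pointing away from each other with a gap of 8626 bp. Their coding sequences had 2119 identical bases among 2343 aligned, or 90.4%, and the longest identical run was 324 bases. Of all stretches of 50 bases in the annotated transcripts, 8.52% for Stat5a and 10.98% for Stat5b also occurred in another gene. How the authors counted reads that match both genes is not given in the sources used here, so values of this pair carry that uncertainty. The first 60 bases of the identical run, coding positions 571 to 630 in each gene, are shown because a read from them cannot tell the genes apart. They lie at chr11:100874023-100874082 on the plus strand in Stat5a and at chr11:100798642-100798701 on the minus strand in Stat5b. Capitals mark bases that are the same in both genes.
Stat5a, identical stretch: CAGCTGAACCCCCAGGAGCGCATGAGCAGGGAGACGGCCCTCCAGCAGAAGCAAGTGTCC
Stat5b, identical stretch: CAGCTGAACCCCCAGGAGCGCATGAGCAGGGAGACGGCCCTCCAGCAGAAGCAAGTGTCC
The last 60 coding bases differ between the genes and stand for the stretches that do tell them apart, at chr11:100883934-100883993 (plus strand) for Stat5a and at chr11:100783099-100783158 (minus strand) for Stat5b.
Stat5a, last coding bases: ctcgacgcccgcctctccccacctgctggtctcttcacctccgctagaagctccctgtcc
Stat5b, last coding bases: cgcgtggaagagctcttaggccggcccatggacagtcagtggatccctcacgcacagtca

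The values are read counts per gene that the authors had normalised by library. Library totals, in multiples of the smallest step of each library, ran from 8260995 to 8528400. Ruxolitinib replicate 2 and combination replicate 3 stood apart from the other libraries of their groups, at -19.7 and -17.3 on the second principal component (11.1% of the variance). Chi-square per degree of freedom was taken on whole steps, and would be near 1 for counting error alone if each step were 1 read. It was 5.69 to 7.2 between replicates where either of these libraries was in the pair and 1.48 to 2.87 elsewhere. Of the neutrophil lineage markers, Mpo, the peroxidase of neutrophil granules, lay between 6385 and 12910 normalised read counts. The later granule genes Ltf (1.98 to 23.87) and Camp (0 to 1.986) were near absent, while Ngp, another of them, lay between 29.86 and 150. The megakaryocyte marker Itga2b, an integrin also found on progenitors, lay between 1745 and 2236. The other markers of that list were far lower: Pf4 (53.75 to 89.5), Gp1ba (33.67 to 58.67), Ppbp (12.82 to 26.68) and Gp9 (0 to 1.99). The T cell marker Cd4, the B cell marker Ms4a1 and 4 globin genes were at 0 in all 12 libraries. The labels do not say whether libraries came from separate cultures, so p-values measure only the spread between these libraries. In bulk RNA, fewer cells of a type and less RNA per cell cannot be told apart.

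After DMSO the level of the 9 genes per kilobase of exon was highest for Jak3 and lowest for Stat2. Jak3, the kinase that pairs with the common gamma chain of interleukin receptors, had 571.7 ± 13.6 normalised read counts per kilobase (SD, n = 3). Stat3 followed at 352.5 ± 14.3, and Tyk2 and Stat2 stood lowest at 220 ± 7.85 and 105.1 ± 0.883. Between them, Stat6 (308.2 ± 8.59), Stat5a (306.1 ± 4.1) and Jak2 (300.9 ± 2.87) did not differ beyond their spread, nor did Stat5b (275.6 ± 11.6) and Jak1 (265.8 ± 9.46). The order between the ends depended on the gene length used. With the longest coding transcript as the length, a choice made after the data were seen, Jak3 remained highest at 761.3 and Stat2 lowest at 141.7, while Stat5a (561.6) and Stat3 (555.9) were close together and Stat5b (292.8) was next to Jak2 (300.9) and Tyk2 (312.8).

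Jak3, Stat2, Stat3 and Stat5b rose and Tyk2 fell after GSK-LSD1 and after the combination, Jak1 and Stat6 also rose after the combination, and 0 of the 9 genes passed the test after ruxolitinib alone. The values of each library are shown in the plot of normalised read counts. Genes past the test had an adjusted p under 0.05 in limma on log2(value + 1), with Benjamini-Hochberg adjustment across the 11484 genes. The comparisons of the 3 treatments with DMSO share the DMSO libraries. Of the 9 genes, 7 passed after the combination (6 higher and 1 lower), 5 after GSK-LSD1 (4 higher and 1 lower) and 0 after ruxolitinib. Of all genes tested, 42.3% passed after the combination, 32.5% after GSK-LSD1 and 1.63% after ruxolitinib. Without ruxolitinib replicate 2 and combination replicate 3, 6 passed after the combination, 6 after GSK-LSD1 and 0 after ruxolitinib. Across all 4 treatments, 6 of the 9 passed the F-test, against 42.8% of all genes: Jak1, Jak3, Tyk2, Stat2, Stat3 and Stat5b. The count of 5 after GSK-LSD1 was 2 without DMSO replicate 2 and 3 without DMSO replicate 1 or GSK-LSD1 replicate 3, and the count of 7 after the combination was 4 without DMSO replicate 1.

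**Figure D1:**
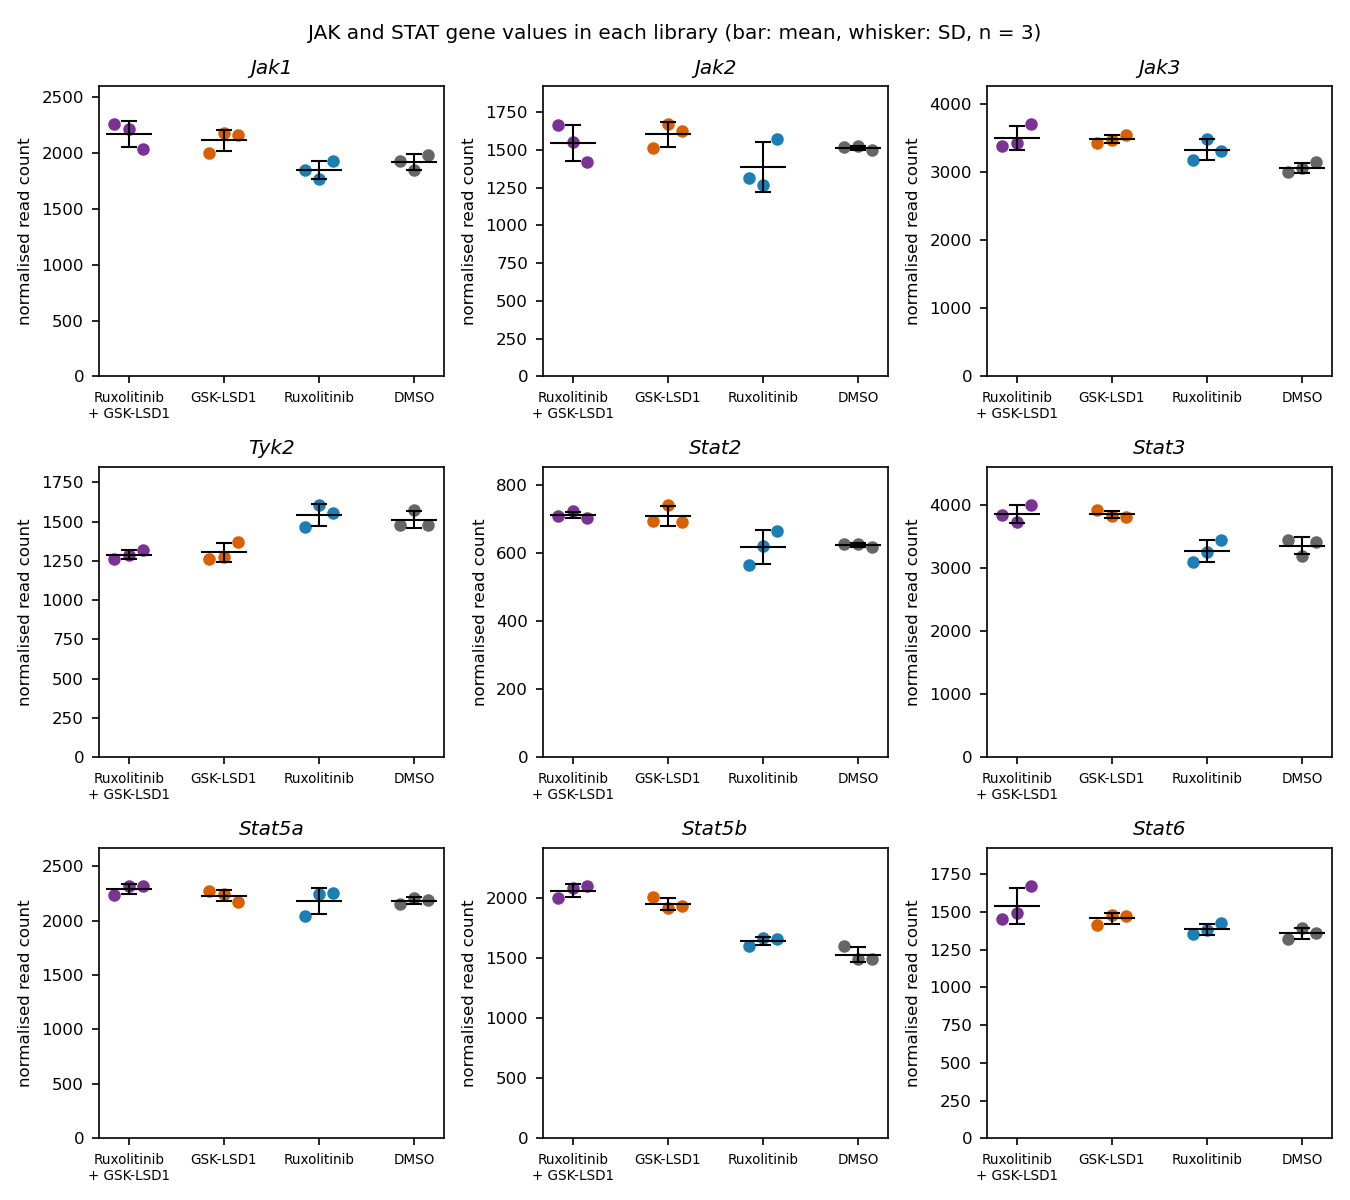
Normalised read counts of the 9 genes (vertical axes from 0) in the 3 libraries of each of the 4 groups, with bars for the mean and whiskers for the SD. Stat5b lay between 1915 and 2098 in the libraries with GSK-LSD1 and between 1488 and 1663 in those without it, and Tyk2 lay between 1261 and 1372 against 1465 to 1606.

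Tyk2, the kinase bound to chains of the type I interferon, interleukin-10 and interleukin-12 receptors, was the only one of the 9 genes that fell (chr9:21104068-21131243, minus strand). It had 1261, 1288 and 1319 normalised read counts after the combination, 1264, 1275 and 1372 after GSK-LSD1, 1465, 1606 and 1552 after ruxolitinib, and 1479, 1572 and 1479 after DMSO. All 6 libraries with GSK-LSD1 lay below all 6 without it. How many of all genes separated in this way was not counted, here or for the genes that follow. The log2 fold change against DMSO was -0.23 ± 0.06 (SE) after the combination (limma adjusted p = 0.00361) and -0.21 ± 0.06 after GSK-LSD1 (adjusted p = 0.00826), against 0.03 ± 0.06 after ruxolitinib (adjusted p = 0.837). Without DMSO replicate 2, its highest DMSO library, the value after GSK-LSD1 was -0.18 (limma adjusted p = 0.0522). Of its exon bases, 8.07% are shared with 1700084C06Rik on the other strand. Among the 4 kinases, per kilobase of exon, Tyk2 made up 13 ± 0.34% after the combination and 13.1 ± 0.41% after GSK-LSD1, against 16.3 ± 0.54% after ruxolitinib and 16.2 ± 0.61% after DMSO (SD, n = 3).

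Jak3 rose after the combination and after GSK-LSD1 (chr8:71676296-71690575, plus strand). It had 3374, 3425 and 3703 normalised read counts after the combination, 3423, 3473 and 3537 after GSK-LSD1, 3177, 3485 and 3303 after ruxolitinib, and 2992, 3050 and 3137 after DMSO. The libraries of each treatment, ruxolitinib included, lay above all DMSO libraries. The log2 fold change was 0.19 ± 0.06 (SE) after the combination (limma adjusted p = 0.00777) and 0.18 ± 0.06 after GSK-LSD1 (adjusted p = 0.0141). After ruxolitinib it was 0.12 ± 0.06 (adjusted p = 0.275). The call after GSK-LSD1 was lost without DMSO replicate 1 (limma adjusted p = 0.0634) or GSK-LSD1 replicate 3 (adjusted p = 0.0605). At 61.0% GC its transcript was the richest in GC of the 9. Changes across genes ran with GC content (Spearman's rho across 11035 genes 0.205 for the combination and 0.415 for ruxolitinib against DMSO, where genes are not independent replicates). After a correction for GC content Jak3 had 0.11 after the combination (limma adjusted p = 0.077), 0.15 after GSK-LSD1 (adjusted p = 0.0184) and -0.004 after ruxolitinib. Its exons share 7.55% of their bases with Insl3 on the same strand.

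Jak1, a kinase used by most cytokine receptor families, rose after the combination (chr4:101152367-101265282, minus strand). It had 2263, 2213 and 2040 normalised read counts after the combination, 2005, 2177 and 2166 after GSK-LSD1, 1850, 1773 and 1932 after ruxolitinib, and 1934, 1847 and 1982 after DMSO. All libraries with GSK-LSD1 lay above all without it. The log2 fold change against DMSO was 0.18 ± 0.06 (SE) after the combination (limma adjusted p = 0.0215), 0.14 ± 0.06 after GSK-LSD1 (adjusted p = 0.0807) and -0.05 ± 0.06 after ruxolitinib (adjusted p = 0.682). Leaving out DMSO replicate 1 ended the call after the combination (limma adjusted p = 0.051), as did leaving out DMSO replicate 2 (0.1), combination replicate 1 (0.0917) or combination replicate 2 (0.0688). After GSK-LSD1 Jak1 passed without combination replicate 3, which adds to the estimate of the spread (0.14, limma adjusted p = 0.0442), and when it was left out together with ruxolitinib replicate 2 (adjusted p = 0.0142).

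Jak2, the main kinase of the receptors for erythropoietin, thrombopoietin and the interleukin-3 family, did not pass against DMSO after any treatment (chr19:29251828-29313080, plus strand). It had 1662, 1554 and 1418 normalised read counts after the combination, 1511, 1672 and 1625 after GSK-LSD1, 1314, 1270 and 1574 after ruxolitinib, and 1519, 1524 and 1497 after DMSO. The DMSO libraries lay close together, and the range of each treatment overlapped theirs. The log2 fold changes were 0.03 (95% confidence interval -0.129 to 0.181), 0.08 (-0.074 to 0.236) and -0.13 (-0.288 to 0.022) after the combination, GSK-LSD1 and ruxolitinib.

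Among the STAT genes the largest change was in Stat5b, which transmits signals of growth hormone and of many haematopoietic cytokines (chr11:100780731-100850724, minus strand). It had 1997, 2081 and 2098 normalised read counts after the combination, 2008, 1915 and 1931 after GSK-LSD1, 1600, 1663 and 1658 after ruxolitinib, and 1601, 1488 and 1490 after DMSO. The lowest library with GSK-LSD1 lay above the highest without it. The log2 fold change against DMSO was 0.43 ± 0.05 (SE, 34.9% higher) after the combination (limma adjusted p = 2.2e-06) and 0.35 ± 0.05 (27.9% higher) after GSK-LSD1 (adjusted p = 4.41e-05). After ruxolitinib it was 0.10 ± 0.05 (adjusted p = 0.334), and its libraries overlapped those of DMSO. The calls after the combination and after GSK-LSD1 were kept in all 23 alternatives for which the fit was repeated.

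Stat5a, its neighbour and close relative, did not pass in any comparison (chr11:100859351-100885169, plus strand). It had 2239, 2318 and 2319 normalised read counts after the combination, 2275, 2245 and 2171 after GSK-LSD1, 2046, 2244 and 2256 after ruxolitinib, and 2151, 2208 and 2192 after DMSO. The combination libraries lay just above those of DMSO, while the other treatments overlapped DMSO. The log2 fold changes were 0.07 (95% confidence interval -0.044 to 0.183), 0.03 (-0.083 to 0.144) and -0.002 (-0.116 to 0.111) after the combination, GSK-LSD1 and ruxolitinib. The value after the combination passed with quantile normalisation (0.14, limma adjusted p = 0.0408) and was -0.02 after the correction for GC content.

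The ratio of the Stat5a to the Stat5b value does not depend on library scaling, and it was lower with GSK-LSD1. It was 1.121, 1.114 and 1.105 after the combination, 1.133, 1.173 and 1.124 after GSK-LSD1, 1.279, 1.349 and 1.361 after ruxolitinib, and 1.344, 1.483 and 1.471 after DMSO. All 6 ratios with GSK-LSD1 lay below the lowest without it. On the log2 scale the combination differed from DMSO by -0.362 and GSK-LSD1 by -0.324, each with p = 0.1 in a two-sided exact permutation test, the smallest p that 3 against 3 libraries allow (0.15 adjusted over 3 tests). Ruxolitinib differed by -0.107 (exact permutation p = 0.3, adjusted 0.3). Reads shared between the genes bear on this ratio, and their part in it was not tested.

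**Figure D2:**
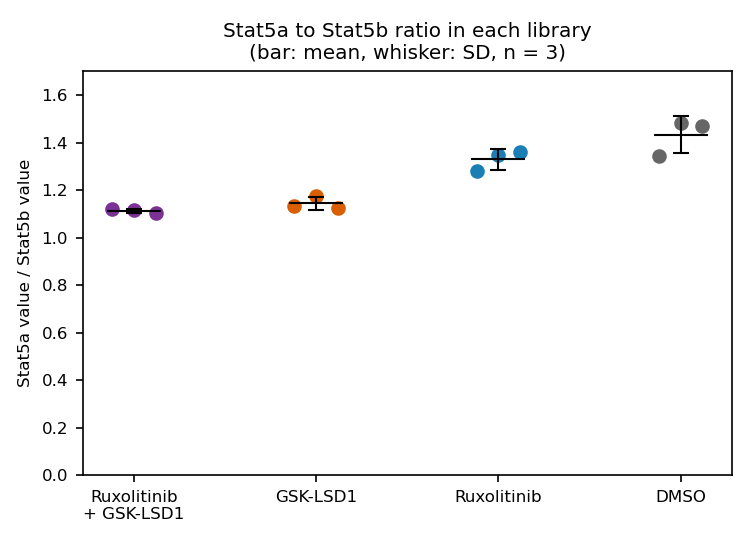
Ratio of the Stat5a to the Stat5b value (vertical axis, no unit) in each library of the 4 groups, with bars for the mean and whiskers for the SD. The mean ratio was 1.114 after the combination, 1.143 after GSK-LSD1, 1.33 after ruxolitinib and 1.433 after DMSO.

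Stat3, the factor of the interleukin-6 family and of granulocyte colony-stimulating factor, also rose with GSK-LSD1 (chr11:100885098-100939540, minus strand). It had 3851, 3730 and 4007 normalised read counts after the combination, 3918, 3834 and 3812 after GSK-LSD1, 3103, 3251 and 3456 after ruxolitinib, and 3457, 3203 and 3416 after DMSO. All 6 libraries with GSK-LSD1 lay above all 6 without it. The log2 fold change against DMSO was 0.20 ± 0.06 (SE) after the combination (limma adjusted p = 0.00622), 0.20 ± 0.06 after GSK-LSD1 (adjusted p = 0.00929) and -0.04 ± 0.06 after ruxolitinib (adjusted p = 0.759). Without DMSO replicate 2, its lowest DMSO library, the value after GSK-LSD1 was 0.17 (limma adjusted p = 0.0634).

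Stat2, which acts with IRF9 in the response to type I interferon, was the lowest of the 9 and rose after both treatments with GSK-LSD1 (chr10:128270559-128292849, plus strand). It had 708.2, 721.1 and 702.1 normalised read counts after the combination, 693.4, 740.5 and 690.1 after GSK-LSD1, 564.1, 619.6 and 665 after ruxolitinib, and 626.6, 625.2 and 616.9 after DMSO. The libraries with GSK-LSD1 lay above the others, and those of ruxolitinib spread on both sides of DMSO. Relative to DMSO, Stat2 had a log2 fold change of 0.19 ± 0.07 (SE) after the combination (limma adjusted p = 0.0287), 0.18 ± 0.07 after GSK-LSD1 (adjusted p = 0.042) and -0.02 ± 0.07 after ruxolitinib (adjusted p = 0.917). The call after GSK-LSD1 was lost when any single DMSO or GSK-LSD1 library was left out (limma adjusted p from 0.0635 to 0.167) and without combination replicate 2 (adjusted p = 0.0506). The call after the combination was lost when any single DMSO library or combination replicate 1 or 2 was left out (adjusted p from 0.0568 to 0.079).

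Stat6, the factor of interleukin-4 and interleukin-13, passed after the combination (chr10:127642986-127660957, plus strand). It had 1453, 1493 and 1672 normalised read counts after the combination, 1415, 1482 and 1474 after GSK-LSD1, 1351, 1381 and 1423 after ruxolitinib, and 1318, 1393 and 1359 after DMSO. The libraries of the combination and of GSK-LSD1 lay above those of DMSO, and those of ruxolitinib overlapped them. Relative to DMSO, Stat6 had a log2 fold change of 0.18 ± 0.06 (SE) after the combination (limma adjusted p = 0.0207), 0.10 ± 0.06 after GSK-LSD1 (adjusted p = 0.204) and 0.03 ± 0.06 after ruxolitinib (adjusted p = 0.837). Its highest value was in combination replicate 3, without which the log2 fold change was 0.12 (limma adjusted p = 0.109). The call was also lost without DMSO replicate 1 (adjusted p = 0.0856) or DMSO replicate 3 (adjusted p = 0.0537).

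**Figure D3:**
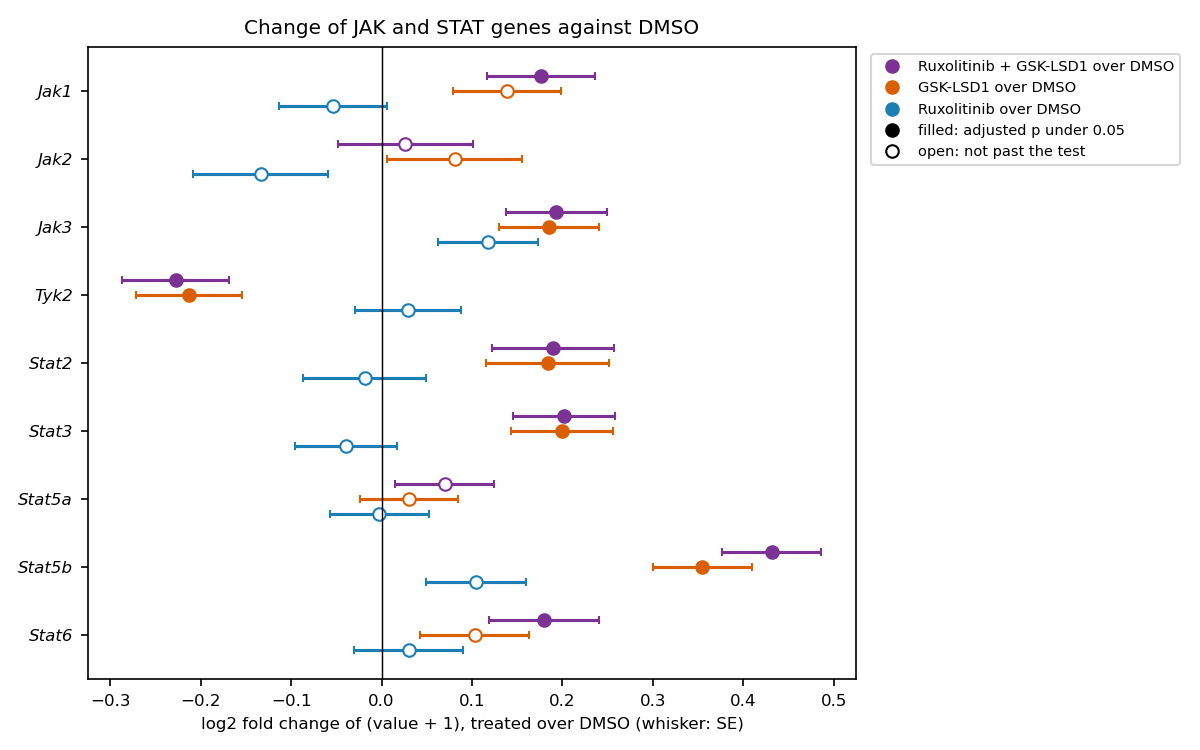
Log2 fold change of (value + 1) against DMSO (horizontal axis) of each of the 9 genes after the combination, GSK-LSD1 and ruxolitinib, with whiskers for the SE and filled points for an adjusted p under 0.05. Stat5b stands highest at 0.43 and 0.35 with GSK-LSD1, Tyk2 stands at -0.23 and -0.21, and the points for ruxolitinib lie between -0.13 and 0.12.

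Log2 fold changes of the 9 genes against DMSO ran from -0.23 to 0.43 after the combination and from -0.21 to 0.35 after GSK-LSD1. Their median log2 fold change against DMSO was 0.18 after the combination, 0.14 after GSK-LSD1 and -0.002 after ruxolitinib, where the medians of all genes tested were -0.01 after the combination, -0.005 after GSK-LSD1 and -0.001 after ruxolitinib. The groups did not overlap for 8 of the 9 genes after the combination, 7 after GSK-LSD1 and 1, Jak3, after ruxolitinib. Of all genes tested the groups did not overlap for 51.6% after the combination, 50.9% after GSK-LSD1 and 23.7% after ruxolitinib. For the marker counts that follow, 42.3% of all genes tested passed after the combination, 32.5% after GSK-LSD1 and 1.63% after ruxolitinib. Of 6 markers of monocytes and macrophages, 5 rose after the combination, 4 after GSK-LSD1 and 1 after ruxolitinib, with 0 lower. They summed to 937.2 to 999.8 normalised read counts after the combination and 888.8 to 1002 after GSK-LSD1, against 575.4 to 635.4 after ruxolitinib and 635.2 to 694.2 after DMSO, with none of the 6 at 0 in all libraries. Of 10 markers of the neutrophil lineage 9 were tested. After the combination 4 rose and 1 fell, after GSK-LSD1 1 rose and 4 fell, and after ruxolitinib 5 rose and 0 fell. The sum of the list, of which Mpo was the largest part, was 17390 to 19470 after the combination, 11010 to 11310 after GSK-LSD1, 14640 to 20000 after ruxolitinib and 11770 to 12200 after DMSO. The part of these shifts in the values of the JAK and STAT genes was not tested.

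After ruxolitinib the JAK and STAT genes had no call against DMSO, at 1.63% of all genes. Their log2 fold changes ran from -0.13 to 0.12, and the 95% confidence intervals of all 9 lay between -0.288 and 0.233. At an unadjusted p under 0.05 in limma there was 1 gene, Jak3, against 17.5% of all genes. Adding ruxolitinib to GSK-LSD1 gave a like picture: of the 9 genes 0 passed in the combination against GSK-LSD1, at 1.4% of all genes, and 0 had an unadjusted p under 0.05, against 12.3% of all genes. Values there ran from -0.05 to 0.08, with confidence intervals between -0.21 and 0.202. For the interaction, the departure of the combination from the sum of both single effects, 0 of the 9 passed, at 0.00871% of all genes, and 0 had an unadjusted p under 0.05, against 4.65% of all genes. The interaction values ran from -0.11 to 0.09, with confidence intervals between -0.272 and 0.298.

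Adding GSK-LSD1 to ruxolitinib changed 5 of the 9 genes in the combination against ruxolitinib (4 higher and 1 lower), at 31.6% of all genes. Stat5b rose by 0.33 ± 0.05 (limma adjusted p = 1e-04), Stat3 by 0.24 ± 0.06 (adjusted p = 0.00228), Jak1 by 0.23 ± 0.06 (adjusted p = 0.00561) and Stat2 by 0.21 ± 0.07 (adjusted p = 0.0229). Tyk2 fell, at -0.26 ± 0.06 (limma adjusted p = 0.00199). The Stat2 call was lost without ruxolitinib replicate 1 (adjusted p = 0.13), combination replicate 1 (adjusted p = 0.0514) or combination replicate 2 (adjusted p = 0.0679), and in a fit of only the groups compared (adjusted p = 0.0883). Jak2 at 0.16 did not pass (limma adjusted p = 0.108), but did without combination replicate 3 (0.22, adjusted p = 0.0233) or ruxolitinib replicate 3 (0.26, adjusted p = 0.00977). Stat6 at 0.15 (adjusted p = 0.0635) passed without combination replicate 1 (0.19, adjusted p = 0.0407).

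GSK-LSD1 against ruxolitinib, which share no library, gave calls for 6 of the 9 genes (5 higher and 1 lower), at 25.4% of all genes. Stat5b (0.25 ± 0.05), Stat3 (0.24 ± 0.06), Jak2 (0.21 ± 0.07), Stat2 (0.20 ± 0.07) and Jak1 (0.19 ± 0.06) were higher after GSK-LSD1, and Tyk2 was lower (-0.24 ± 0.06), with limma adjusted p between 0.00186 and 0.0388. The count was 3 without ruxolitinib replicate 2, GSK-LSD1 replicate 2 or GSK-LSD1 replicate 3. The Jak2 call was lost when any single DMSO library, GSK-LSD1 replicate 2 or 3, or ruxolitinib replicate 1 or 2 was left out (limma adjusted p from 0.0513 to 0.163). It was also lost without both libraries that stood apart (adjusted p = 0.0572) and with no filter on low values (adjusted p = 0.0677). Stat2 was lost without GSK-LSD1 replicate 2 or 3 or ruxolitinib replicate 1 or 2 (adjusted p from 0.0503 to 0.158), and in a fit of only the groups compared (adjusted p = 0.0582). Jak1 was lost without GSK-LSD1 replicate 2 or 3 or ruxolitinib replicate 2 (adjusted p from 0.0729 to 0.097).

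Stat5b, Stat5a and Stat3 stand next to each other on chromosome 11, and their values differed. Stat5a and Stat3 converge and overlap by 72 bp at their 3′ ends. After GSK-LSD1 the log2 fold changes against DMSO were 0.35 for Stat5b, 0.03 for Stat5a and 0.20 for Stat3. Within 100000 bp on either side, 6 other genes were tested, where 32.5% of all genes tested passed after GSK-LSD1. Atp6v0a1, a subunit of the vacuolar proton pump, was higher (0.53 ± 0.07, limma adjusted p = 8.98e-06), and Kat2a, a histone acetyltransferase, was lower (-0.26 ± 0.07, adjusted p = 0.00491). Rab5c, Zfp385c, Dhx58 and Ghdc did not pass, with values from -0.05 to 0.19. The calls among these neighbours are near the share of all genes and say nothing particular of the region. Stat6 and Stat2 lie on chromosome 10, 609601 bp apart.

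**Figure D4:**
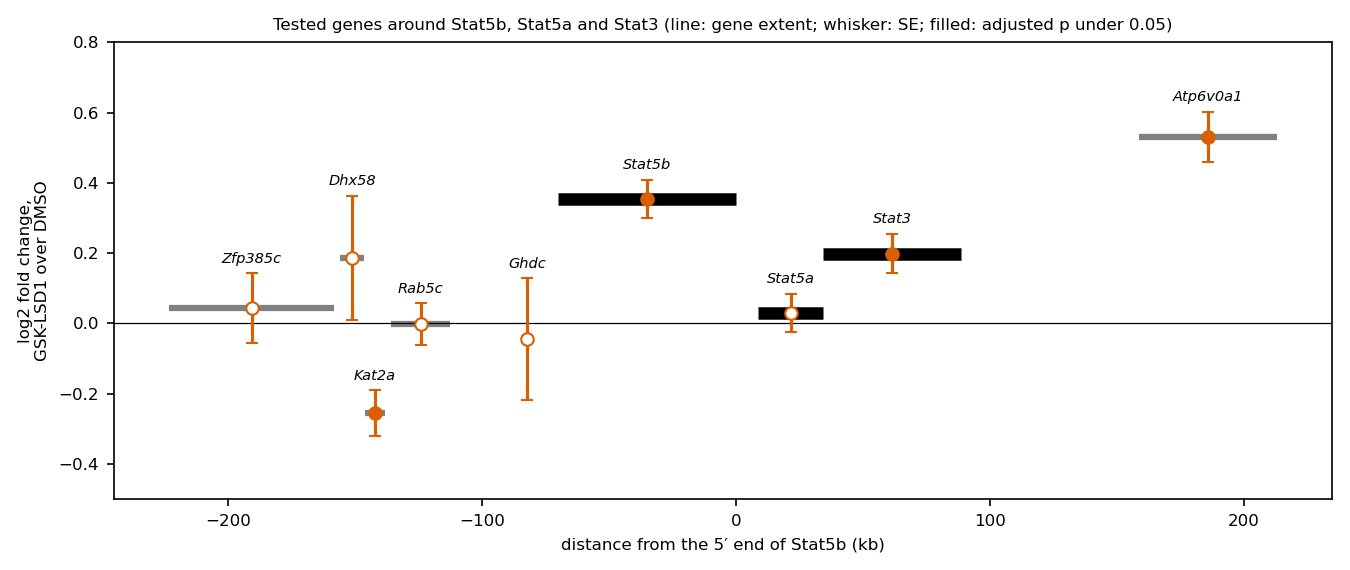
Log2 fold change after GSK-LSD1 against DMSO (vertical axis, whiskers for the SE) of the tested genes around Stat5b, Stat5a and Stat3, by distance in kb from the 5′ end of Stat5b (horizontal axis, lines for the extent of each gene). Stat5b at 0.35, Stat3 at 0.20, Atp6v0a1 at 0.53 and Kat2a at -0.26 passed the test (filled points), and Stat5a at 0.03 did not. Among all genes tested, 32.5% passed in this comparison.

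Promoter windows from RefSeq (GRCm38.p6, 250 bases before to 50 after each annotated start) matched all 9 genes by symbol and gave 11 windows. They were searched on both strands for the STAT motif TTCNNNGAA, for TTCNNNNGAA, a spacing used by STAT6, for GAAA repeated after 2 bases, the core bound by STAT2 with IRF9, and for AATC, the core of the motif of GFI1, a repressor that recruits LSD1. TTCNNNGAA was in none of the 11 windows and in 8.3% of all 32851 windows. TTCNNNNGAA (7.0% of all windows) and the repeated GAAA (3.4%) were in the Stat2 window and in no other of the 11. AATC, in 73.1% of all windows, was in Tyk2, Stat6, Stat2, Stat3 and the windows of 1 of the starts each of Stat5a and Stat5b. The Stat2 window (chr10:128270248-128270547, plus strand) is shown with its matches to TTCNNNNGAA and to the repeated GAAA in capitals. The repeated GAAA lies on the minus strand, so each copy reads TTTC here, and the matches do not overlap.
Stat2 promoter window: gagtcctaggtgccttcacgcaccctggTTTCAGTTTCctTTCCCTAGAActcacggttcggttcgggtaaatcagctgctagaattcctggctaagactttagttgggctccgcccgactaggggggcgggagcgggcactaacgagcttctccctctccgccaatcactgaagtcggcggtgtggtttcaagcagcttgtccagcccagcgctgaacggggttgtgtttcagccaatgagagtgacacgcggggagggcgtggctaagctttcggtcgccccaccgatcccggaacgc
A match is a run of letters and not a measured binding site.

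The receptors that JAK proteins bind rose with GSK-LSD1 more often than they fell. The lists of pathway genes were drawn up by role, with earlier results of these data known. Their shares beside those of all genes are therefore descriptions and not tests. Of 24 receptor genes 20 were tested, and 14 rose and 0 fell after the combination, 15 rose and 0 fell after GSK-LSD1, and 2 rose and 1 fell after ruxolitinib. The shares that passed were 70% after the combination, 75% after GSK-LSD1 and 15% after ruxolitinib, against 42.3%, 32.5% and 1.63% of all genes. Their median log2 fold change was 0.53 after the combination, 0.35 after GSK-LSD1 and 0.07 after ruxolitinib. Il2rg, the common gamma chain that binds JAK3, had 3676 ± 93.5 normalised read counts after the combination and 3552 ± 118 after GSK-LSD1, against 2145 ± 265 after ruxolitinib and 2040 ± 45.8 after DMSO (SD, n = 3). Il6st, the shared chain of the interleukin-6 family upstream of STAT3, had 1184 ± 157 after the combination and 1101 ± 94.8 after GSK-LSD1, against 509.2 ± 55.8 after ruxolitinib and 523.1 ± 11.9 after DMSO. Il2rg, Il6st, the interferon gamma receptor chain Ifngr2 and the interleukin-10 receptor chain Il10ra rose by 0.85, 1.17, 1.37 and 2.23 after the combination and by 0.80, 1.07, 1.23 and 2.15 after GSK-LSD1 (limma adjusted p of 1.88e-08 or less). After ruxolitinib Csf2ra (0.45 ± 0.10, adjusted p = 0.0262) and Il3ra (0.37 ± 0.09, adjusted p = 0.0486), receptor chains for granulocyte-macrophage colony-stimulating factor and interleukin-3, rose, and Il13ra1 fell (-0.90 ± 0.17, adjusted p = 0.0091). Calls after ruxolitinib depended on single libraries: 187 of all genes passed, but 32 without DMSO replicate 3 and 41 without ruxolitinib replicate 2. Without combination replicate 3, which adds to the estimate of the spread, the count was higher, at 551. Whether the calls of these receptors held in such fits is not given here. Csf3r did not pass after any treatment (0.19, 0.01 and 0.13 after the combination, GSK-LSD1 and ruxolitinib), and its value could include reads from the introduced mutant gene.

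Of 20 inhibitors of the pathway, 4 rose and 3 fell after the combination (35% passed, against 42.3% of all genes), 5 rose and 1 fell after GSK-LSD1 (30%, against 32.5%), and 0 passed after ruxolitinib (limma; 5 at an unadjusted p under 0.05). These shares are no higher than those of all genes, and the values that follow describe single genes. Ptpn6, the phosphatase SHP-1, had 1958 ± 69.7 normalised read counts after the combination, 1610 ± 47.5 after GSK-LSD1, 1298 ± 54.3 after ruxolitinib and 1160 ± 20.2 after DMSO (SD, n = 3). It rose by 0.75 ± 0.06 after the combination and by 0.47 ± 0.06 after GSK-LSD1 (limma adjusted p = 1.05e-09 and 1.83e-06). Pias3, an inhibitor of STAT3, rose by 0.71 after the combination and 0.61 after GSK-LSD1. The phosphatase Ptprc rose by 0.51 after the combination and 0.49 after GSK-LSD1, and the adaptor Sh2b3, which restrains JAK2, by 0.37 after the combination and 0.29 after GSK-LSD1. Socs2, a feedback inhibitor induced by STAT5, had 4529 ± 187 normalised read counts after the combination, 5292 ± 283 after GSK-LSD1, 5256 ± 243 after ruxolitinib and 5162 ± 240 after DMSO. It fell after the combination (-0.19 ± 0.06, limma adjusted p = 0.0138) and did not pass after GSK-LSD1 (0.04) or ruxolitinib (0.03). The feedback inhibitors Socs3 and Cish did not pass against DMSO after any treatment.

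Of 7 partners and coactivators of STATs, 3 rose after the combination and 3 after GSK-LSD1, and 0 passed after ruxolitinib (limma; 1 at an unadjusted p under 0.05). The share of 42.9% in both compares with 42.3% of all genes after the combination and 32.5% after GSK-LSD1. The same 3 rose both times. They were the acetyltransferases Crebbp (0.39 after the combination, 0.39 after GSK-LSD1) and Ep300 (0.20 after the combination, 0.31 after GSK-LSD1) and the coactivator Ncoa1 (0.57 after the combination, 0.34 after GSK-LSD1). Irf9, the partner of STAT2, did not pass (0.14, 0.05 and 0.01 after the combination, GSK-LSD1 and ruxolitinib).

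Of 15 genes known as targets of STAT3 and STAT5, 1 rose and 4 fell after the combination (33.3% passed, against 42.3% of all genes), 3 rose and 3 fell after GSK-LSD1 (40%, against 32.5%), and 0 rose and 2 fell after ruxolitinib (13.3%, against 1.63%). With GSK-LSD1 these shares are near those of all genes, so the counts there say nothing particular of the targets. The transcriptional repressor Bcl6 rose by 1.27 ± 0.15 after the combination and by 0.83 ± 0.15 after GSK-LSD1 (limma adjusted p = 8.45e-07 and 0.000213). The kinase gene Pim3 (-0.61 after the combination, -0.48 after GSK-LSD1) and the cyclin gene Ccnd3 (-0.35 after the combination, -0.30 after GSK-LSD1) fell in both. The interleukin-2 receptor chain Il2ra (-0.47 ± 0.09, limma adjusted p = 0.00874) and the cytokine Osm (-0.31 ± 0.06, adjusted p = 0.0165) fell after ruxolitinib. As for the receptors, whether these calls held with single libraries left out is not given here. Pim1, a kinase gene induced by STAT5, had log2 fold changes of 0.02, 0.003 and 0.05 after the combination, GSK-LSD1 and ruxolitinib, none past the test. Of 10 interferon-induced targets of STAT2 with IRF9, 5 were tested, and 1 rose after the combination (20%, against 42.3% of all genes), 2 after GSK-LSD1 (40%, against 32.5%) and 0 after ruxolitinib (limma; 1 at an unadjusted p under 0.05). Irf7, a regulator of interferon genes, rose by 1.22 ± 0.21 after the combination and 1.00 ± 0.21 after GSK-LSD1 (limma adjusted p = 0.000101 and 0.00111), and Rtp4 rose after GSK-LSD1 by 1.00 ± 0.32 (adjusted p = 0.0194). Both had low values. Mean normalised read counts of Irf7 were 41.3 after the combination, 35.56 after GSK-LSD1 and 17.25 after DMSO. Those of Rtp4 were 24.6 after GSK-LSD1 and 11.93 after DMSO. Isg15, Ifit2 and Oas1a, the other genes tested, did not pass against DMSO.

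**Figure D5:**
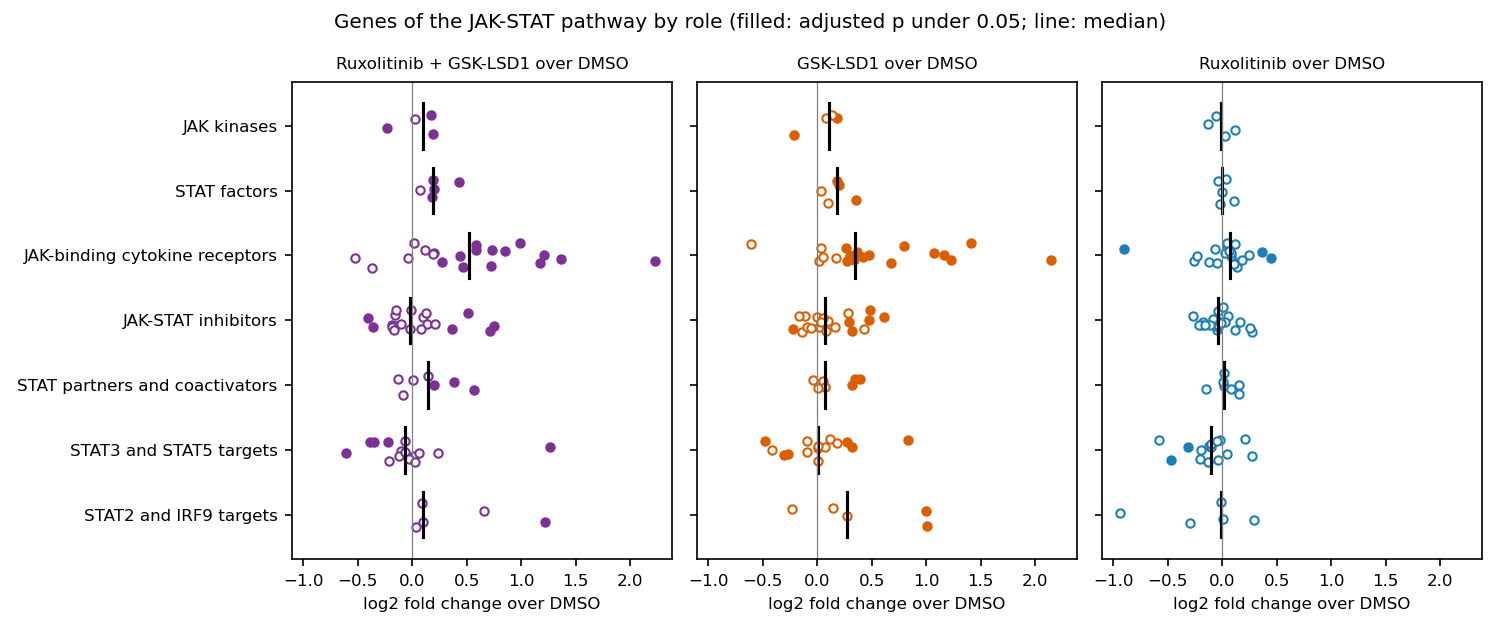
Log2 fold change against DMSO (horizontal axes) of the tested genes in each list, with a point per gene, filled for an adjusted p under 0.05, and a line for the median of the list. The receptors have medians of 0.53 after the combination, 0.35 after GSK-LSD1 and 0.07 after ruxolitinib.

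The genes whose values ran most like a member's over the 12 libraries were picked by Pearson's r of log2(value + 1) among 8393 genes, for the 6 members that passed the F-test. Because the libraries fall apart by treatment, r here describes differences between treatments as well as between libraries. For Stat5b these were Cntrob (0.991), Mfge8 (0.988) and Ctdsp2 (0.984). For Tyk2 they were Dctd (0.974), Ctage5 (0.968) and Lsg1 (0.966), for Stat3 Trp53i11 (0.972), Pi4k2a (0.967) and Myadm (0.966), and for Stat2 Sptan1 (0.974), Sptbn1 (0.962) and Nfkbie (0.954). For Jak1 they were Ccpg1 (0.972), Plek (0.967) and Stk4 (0.967), and for Jak3 Ldlrad4 (0.962), Lmna (0.962) and Tle3 (0.951).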

How the data were processed

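Gene expression was measured by RNA sequencing in 12 libraries, 3 per treatment. The deposited values are a signal per gene and library: read counts that the authors normalised by library, with 1e-05 added to every value. Once this constant was taken off, all values checked lay within 0.01 of whole multiples of a step near 1. The check left out large values, among them most values of the JAK and STAT genes. Whole reads were not taken as recovered, so no count model was fitted to compare treatments. Only the chi-square between replicates treated whole steps as if they were reads. STAR, DESeq2 and the builds mm10 and GRCm38 are named in the submitters' processing notes, without versions; the counting program and strandedness are not given in the sources used here.

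A mean per treatment was fitted with limma (version 3.58.1, R 4.3.3) to log2(value + 1) with a variance trend and 8 residual degrees of freedom. Genes with a mean of at least 10 were tested, and an adjusted p under 0.05 (Benjamini-Hochberg over 11484 genes) passed. The Stat5a to Stat5b ratio was compared by exact permutation tests over libraries. The procedure was tested on simulated counts with the same spread in all libraries. No simulated library stood apart, unlike 2 of the real ones, so the test does not cover that case. Positions and lengths are from GENCODE vM21 (GRCm38), matched by symbol, and promoter sequences are from RefSeq.

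Members and gene lists were chosen with earlier results of these data known. From each pathway list the rule took, against DMSO, up to 4 genes with the smallest p past the test, plus Csf3r, Cish, Socs2, Socs3 and Pim1. The text gives some of these. Likeness was sought among genes averaging 100 or more. Irf9 is named from outside this rule, chosen after its values were seen. Alternatives included pseudocounts of 0.25 and 5, a filter at a mean of 50 or none, median-of-ratios scaling, quantile normalisation, only the groups compared, library weights, the replicate block, a GC correction and leaving out libraries.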

Additional observations from a re-analysis of the deposited data

How the results depend on the processing

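With a library left out in turn, the number of JAK and STAT genes past the test ran from 2 to 6 for GSK-LSD1 against DMSO, from 4 to 7 for the combination against DMSO, from 4 to 6 for the combination against ruxolitinib, from 3 to 6 for GSK-LSD1 against ruxolitinib and from 5 to 7 in the F-test. It stayed at 0 in the other 3 comparisons. The ratio of Stat5a to Stat5b kept its direction, from -0.408 to -0.336 for the combination, -0.37 to -0.299 for GSK-LSD1 and -0.152 to -0.079 for ruxolitinib, all against DMSO on the log2 scale.

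Same-numbered libraries did not visibly deviate together (r from -0.148 to 0.15 over 18 pairs). The labels do not say what a shared number means, and 3 libraries per group cannot settle whether the numbers pair the samples. With the replicate block, 7 genes passed for the combination and 4 for GSK-LSD1 against DMSO, 5 for the combination against ruxolitinib, 5 for GSK-LSD1 against ruxolitinib and 6 in the F-test. The calls lost were Stat2 for GSK-LSD1 against DMSO (limma adjusted p = 0.0562) and Jak2 for GSK-LSD1 against ruxolitinib (adjusted p = 0.0609). The ratio differences were unchanged in size, with p = 0.25 in an exact sign-flip permutation test, the smallest 3 pairs allow.

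No called change turned its direction under any alternative. Uncalled log2 fold changes against DMSO that changed sign were, after the GC correction, Jak3 (-0.004), Tyk2 (-0.064) and Stat6 (-0.022) for ruxolitinib, and Stat5a for GSK-LSD1 (-0.014) and the combination (-0.017). With quantile normalisation Stat5a for ruxolitinib was 0.018, and without both libraries that stood apart Tyk2 for ruxolitinib was -0.001. With a library left out in turn, values on both sides of 0 were also found for Stat5a (-0.027 to 0.043), Stat2 (-0.075 to 0.043) and Tyk2 (-0.001 to 0.065) for ruxolitinib, Jak2 for the combination (-0.028 to 0.086) and Stat5a for GSK-LSD1 against ruxolitinib (-0.013 to 0.057). The cause was not tested. Levels per kilobase in DMSO moved with the choice of gene length for 8 of the 9 genes. With 3 libraries per group, SEs of 0.05 to 0.07 (log2) limited the size of change that could pass.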
